A study of Mus musculus with 8 samples.

Results

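Tumours of WT hosts taken at day 6 were compared with tumours of WT hosts taken at day 4 after inoculation of MOPC, an oropharyngeal carcinoma line of the mouse that was injected under the skin. The comparison used 4 of the 8 arrays of the series, the 2 WT tumours of day 6 and the 2 WT tumours of day 4, and it covered the autosomal genes, of which 17405 of the 18194 genes with 1 probe set each were measured and 12505 had a signal high enough to be tested. The hosts were C57BL/6 mice with intact Tlr3, Tlr7 and Tlr9, and the tumour cells were the same line in every host. The other 4 arrays were tumours of hosts that lack Tlr3, Tlr7 and Tlr9 (KO), 2 of day 6 and 2 of day 4, and they entered the estimate of the spread. No group had a treatment beyond the inoculation. The study used male and female mice of a range of ages, and neither the age nor the sex of an array's host is labelled. The labels name the RNA source as MOPC cells, but the tissue was whole tumour, and transcripts of host cells were measured with those of the carcinoma cells, among them Lyz2 of myeloid cells (35149.5 to 40059.3 in the 4 WT arrays) beside the epithelial keratin Krt8 (23355.2 to 27086.9).

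A graft of tumour cells starts without blood vessels of its own, and host endothelial cells, fibroblasts and leukocytes enter it while the carcinoma cells resume growth. Cells short of oxygen stabilise the transcription factor HIF-1, which switches on genes of glycolysis and vessel growth, whereas dividing cells express genes of DNA replication and mitosis under the factors E2F and B-MYB. Interferon-γ from activated T cells and NK cells switches on chemokines and GTPases in most other cells, and the circadian clock changes the level of its own components with the hour of the day.

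The day of the tumour was confounded with the sex of the host. Xist, the RNA that silences one X chromosome in females, had signals of 91.5 and 142.1 in the WT arrays of day 4 and of 5579.1 and 6805.4 in those of day 6. Eif2s3y of the Y chromosome had 798.1 and 1135.7 at day 4 and 10.2 and 33.0 at day 6. The KO arrays were split by day in the same way, with Xist at 44.6 and 90.6 against 7121.0 and 6887.6. Day and host sex therefore cannot be told apart in any gene below, autosomal genes included, and neither can any other feature in which the mice of the 2 days differed, such as the hour at which the tumours were taken. The summed signal of the adipocyte markers was 25065 and 80970 in the WT arrays of day 4 and 57577 and 26503 in those of day 6. WT day 4 replicate 2 also stood apart from the other WT arrays in skeletal muscle transcripts. The summed signal of the 22 muscle markers was 199092 in this array and 2348 to 2768 in the other 3 WT arrays, with Acta1, skeletal muscle actin, at 34991.8 against 336.4 to 559.7. The median log2 fold change of the 18 muscle markers tested was −2.87 with this array and 0.41 without it, and 0 of them passed the test. Replicates correlated across probe sets at 0.979 (Spearman) for WT day 6 and 0.962 for WT day 4, and the 3′/5′ ratio of the Gapdh control probes lay at 0.808 to 0.817 at day 4 and 0.806 to 0.811 at day 6.

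Of the 12505 autosomal genes tested, 526 were higher and 206 lower at day 6, which is 4.21% and 1.65% of the genes tested (limma, adjusted p under 0.05). The counts of each list below stand beside these shares. A single gene that passed in a list is not a result about that list. Most differences were small, and 402 of the 732 genes changed by less than 1 on the log2 scale, while 21 rose by more than 2 and 24 fell by more than 2. The signals of all 732 genes did not overlap between the days, but nor did those of 53.8% of all genes tested, since each group held 2 arrays. The median log2 fold change of all genes tested was 0.01. The number of genes that passed depended on single arrays, also on KO arrays, which enter through the estimate of the spread. Removing replicate 1 of WT day 6 left 2 genes, Lmo1 and Fmod, and removing either replicate of KO day 4 left 27. Removing replicate 1 of WT day 4 gave 335 genes, and removing replicate 1 or replicate 2 of KO day 6 gave 452 and 466. Removing the array with muscle, replicate 2 of WT day 4, gave 804, and removing replicate 2 of WT day 6 gave 864. Of 80 genes named below that passed and were followed in every fit, 2 also passed without the first of these arrays, 16 without either replicate of KO day 4 and 45 without replicate 1 of WT day 4. The day 4 arrays had the higher medians. Where the arrays were centred on their medians, the median log2 fold change of all genes tested was 0.20, against 0.01 here. Of the genes that passed then, 91.3% were higher at day 6, against 71.9% here.

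**Figure D1:**
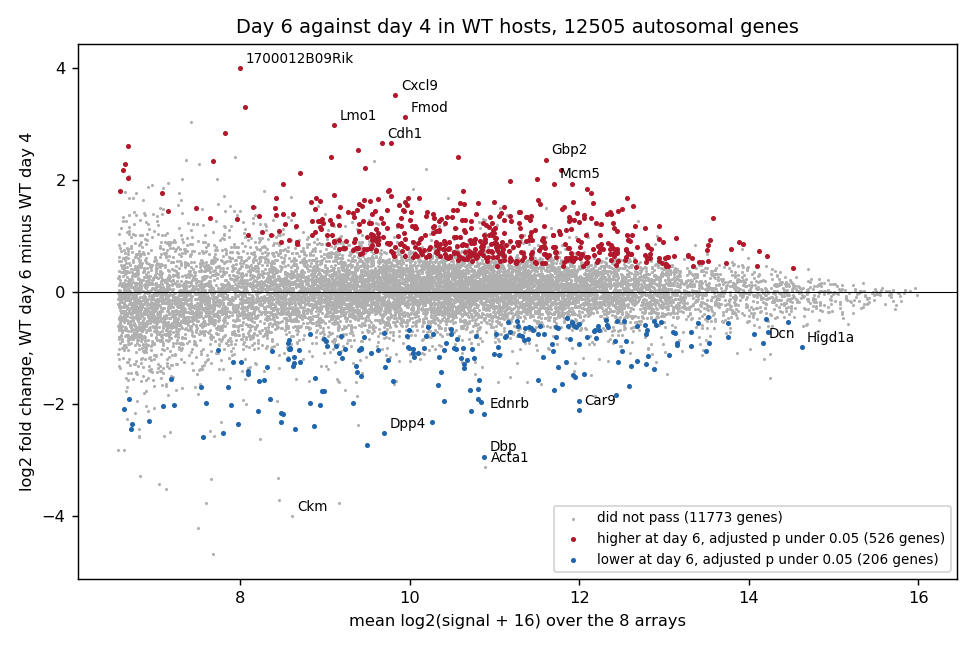
The log2 fold change between WT day 6 and WT day 4 is plotted against the mean log2(signal + 16) over the 8 arrays, 1 point for each of the 12505 autosomal genes, with the 526 higher genes in red, the 206 lower genes in blue and the rest in grey. Genes with a low signal needed a larger change to pass, and muscle genes such as Ckm and Acta1 lie far below 0 in grey because 1 of the 2 arrays of day 4 held them.

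Among the 15 genes with the largest rise of those that passed, Lmo1, a LIM-domain cofactor of transcription, was the most even within its groups. Its signals were 158.5 and 185.7 at day 4 and 1455.1 and 1466.8 at day 6 (log2 fold change 2.98, standard error, SE, 0.21, adjusted p = 0.00188 from limma). Fmod, the collagen-binding proteoglycan fibromodulin, had 283.0 and 382.4 at day 4 and 3648.4 and 2439.1 at day 6 (log2 fold change 3.12, SE 0.24, adjusted p = 0.00238). In both genes the arrays of the days lay apart, which holds for all 732 genes that passed. The RIKEN gene 1700012B09Rik went from 43.6 and 17.5 to 855.8 and 564.5 (log2 fold change 3.99, SE 0.34, adjusted p = 0.00372). Cdh1, which encodes the adhesion protein E-cadherin of epithelial cells, had signals of 210.1 and 277.2 at day 4 and 2119.0 and 1202.6 at day 6 (log2 fold change 2.65, SE 0.26). Ch25h, the enzyme that makes 25-hydroxycholesterol, had 575.5 and 447.9 at day 4 and 2644.3 and 2911.4 at day 6. Gzmb, the granule protease granzyme B of cytotoxic lymphocytes, had 247.0 and 293.8 at day 4 and 1753.9 and 1274.6 at day 6 (log2 fold change 2.40, SE 0.27, adjusted p = 0.0132). The chemokine Cxcl15 rose from 367.2 and 262.0 to 1994.9 and 1749.8. Of the other 8 genes, Cxcl9, Ubd, Gbp6, Gbp2 and Il18bp are known targets of interferon-γ, and Moxd1, Mfsd2a and Mnd1 rose by 2.83, 2.61 and 2.34 on the log2 scale. Mnd1, a factor of homologous recombination, and Mfsd2a, a lipid transporter of brain endothelium, had signals under 100 in both arrays of day 4.

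Dbp, a transcription factor driven by the circadian clock, had the largest fall among the genes that passed, although muscle genes that did not pass had lower values, such as Acta1 (−3.12). Its signals were 3913.7 and 6165.4 at day 4 and 566.1 and 690.8 at day 6 (log2 fold change −2.94, SE 0.24, adjusted p = 0.00314). Wnt2, a secreted Wnt ligand, followed with 1516.1 and 1992.8 at day 4 and 209.7 and 296.2 at day 6 (log2 fold change −2.72, SE 0.32, adjusted p = 0.0132). The signals of both genes did not overlap between the days, like those of all 732 genes that passed. Dpp4, the cell-surface peptidase CD26, had 1375.6 and 2686.0 at day 4 and 344.9 and 302.6 at day 6, and its 4 probe sets above the filter gave log2 fold changes from −2.52 to −0.96. Ednrb, the endothelin receptor type B, had 3554.7 and 5409.1 at day 4 and 1156.4 and 804.5 at day 6 (log2 fold change −2.17, SE 0.26, adjusted p = 0.0132). Cd55, which dissolves complement convertases on the cell surface, had 671.0 and 995.1 at day 4 and 202.2 and 112.1 at day 6. Ccn3, a matricellular protein, had 1828.4 and 2988.0 at day 4 and 551.5 and 376.6 at day 6. Aldh1a3, an enzyme of retinoic acid synthesis, went from 680.1 and 276.1 to 115.0 and 27.4. Gap43 and Slitrk6, known from growing nerve cells, fell by 2.52 and 2.17 on the log2 scale, and the amino acid transporter Slc38a4 fell by 2.36. The other 5 of the 15 genes that fell most, Avil, Pamr1, Itgbl1, Fam78b and Fer1l6, had log2 fold changes of −2.45, −2.45, −2.38, −2.36 and −2.30.

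**Figure D2:**
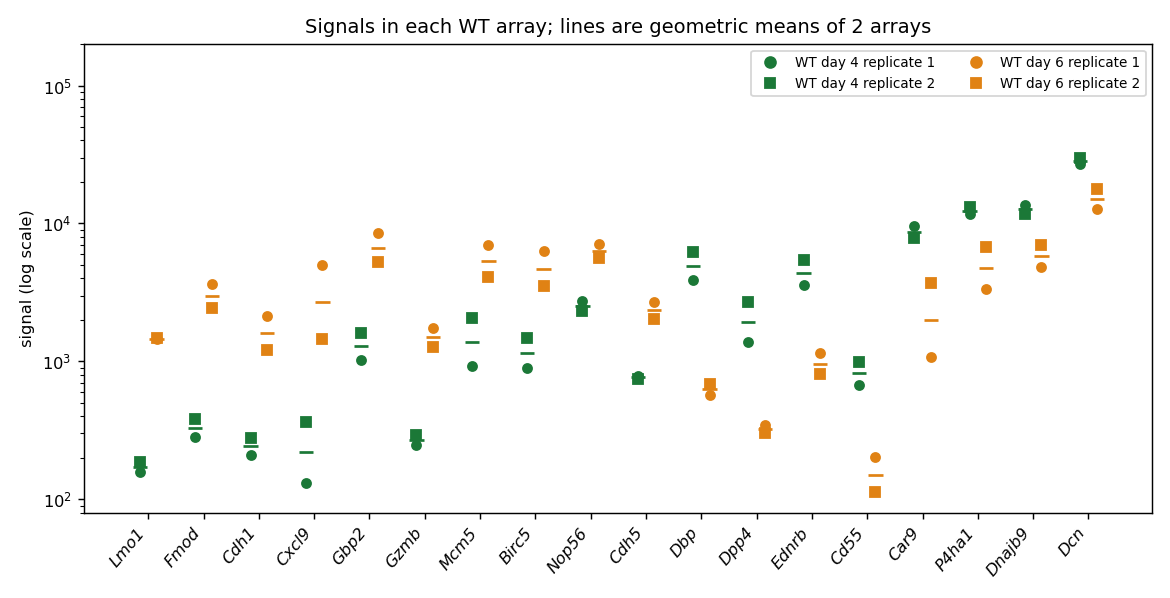
Signals of 18 named genes in the 4 WT arrays on a log axis, with day 4 in green, day 6 in orange, circles for replicate 1, squares for replicate 2 and lines for the geometric mean of the 2 arrays of a day. The genes from Lmo1 to Cdh5 lie higher at day 6 and those from Dbp to Dcn lower, and the distance between the replicates is widest for Cxcl9 and Car9.

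Most of the tested genes of cell division rose. Of 23 tested mitosis genes, 21 were higher at day 6 and 0 lower, all 23 had a positive log2 fold change, and the median was 1.33, against 0.01 over all genes tested. In a bulk sample, more dividing cells and more RNA per dividing cell cannot be told apart. Birc5, or survivin, a part of the chromosomal passenger complex, had signals of 901.7 and 1475.4 at day 4 and 6345.0 and 3493.7 at day 6 (log2 fold change 2.01, SE 0.29, adjusted p = 0.0169). The mitotic cyclin Ccna2 had 1524.3 and 2317.6 at day 4 and 6738.6 and 4855.6 at day 6, a log2 fold change of 1.60. Cdc20 and Ube2c, an activator and a conjugating enzyme of the anaphase-promoting complex, rose by 1.59 and 1.54. Of 26 tested genes of DNA replication, 19 were higher and 0 lower, all 26 were positive, and the median was 1.18. Mcm5, a subunit of the replicative helicase, went from 919.9 and 2067.0 to 6927.1 and 4083.5 (log2 fold change 1.93, SE 0.35, adjusted p = 0.0242), while its 3 probe sets above the filter ranged from 0.30 to 1.93. Gins1, a partner of that helicase, had 334.2 and 371.5 at day 4 and 1585.7 and 1045.3 at day 6. Rrm2, the small subunit of ribonucleotide reductase, rose by 1.67 and Uhrf1, which maintains DNA methylation at replication, by 1.60. Within each day the replicates differed as well. In the median of the mitosis genes, relative to the mean of the 8 arrays, the arrays lay at −1.18 and −0.65 at day 4 and at 0.75 and 0.12 at day 6, so the nearer arrays of the days were little farther apart than the replicates. When replicate 1 of WT day 6 or an array of KO day 4 was removed, 0 mitosis genes passed, removing replicate 1 of WT day 4 left 6, and removing any other array gave 14 to 22. For DNA replication, removing replicate 1 of WT day 6 left 0 genes, removing an array of KO day 4 left 1, and removing any other array gave 13 to 21.

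The promoters of Mcm5 and Cdc20 are shown because replication and mitosis genes are textbook targets of different promoter elements, the E2F site and the cell cycle homology region (CHR). The sequences are the 250 bases before the RefSeq gene start, 5′ to 3′ on the gene's strand in GRCm38.p6 (chr8:75109259-75109508, plus strand for Mcm5 and chr4:118437344-118437593, minus strand for Cdc20), and the capitals mark TTTGGCGC, an E2F motif, in Mcm5 and TTTGAA, the CHR, in Cdc20, on either strand.
Mcm5 promoter: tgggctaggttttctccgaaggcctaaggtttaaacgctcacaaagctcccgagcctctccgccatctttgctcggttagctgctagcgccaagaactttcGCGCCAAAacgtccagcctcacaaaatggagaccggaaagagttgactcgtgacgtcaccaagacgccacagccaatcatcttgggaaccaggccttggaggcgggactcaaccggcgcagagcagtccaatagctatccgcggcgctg
Cdc20 promoter: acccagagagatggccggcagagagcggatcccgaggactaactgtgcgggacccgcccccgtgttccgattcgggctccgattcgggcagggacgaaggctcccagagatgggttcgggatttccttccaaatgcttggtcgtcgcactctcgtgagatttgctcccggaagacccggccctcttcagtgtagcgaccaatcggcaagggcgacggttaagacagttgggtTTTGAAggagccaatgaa
The E2F motif was in 2 of the 16 replication genes that rose and had a promoter in the table, Mcm5 and Mcm6, and in 0.417% of all 32851 promoters of this length. The CHR was in 7 of 18 mitosis genes that rose and in 16% of all promoters. Here and for the motifs below, list members are counted by gene. The share of all promoters is counted by promoter and was not restricted to the genes tested. A match is a run of letters and not a measured binding site.

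Of 19 tested genes of ribosome biogenesis, 9 rose, 0 fell and 10 did not pass, and the median was 0.57. Nop56, a core protein of the snoRNPs that methylate ribosomal RNA, had 2725.9 and 2305.3 at day 4 and 7078.7 and 5582.8 at day 6 (log2 fold change 1.32, SE 0.15, adjusted p = 0.0132). Rrs1 and Bop1, assembly factors of the large ribosomal subunit, rose by 1.08 and 0.97, and Rrp12 by 1.07, while a second probe set of Bop1 gave 0.17. Npm1 and Ncl, the abundant nucleolar proteins, did not pass and had log2 fold changes of −0.22 and 0.09. The list had 0 genes that passed after removal of replicate 1 of WT day 6, removing an array of KO day 4 left 2, and removing replicate 2 of WT day 4 gave 4 higher genes and 1 lower, Npm1. Of 23 genes of oxidative phosphorylation, 1 was higher (Cyc1, 0.60) and 0 lower.

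Some targets of hypoxia fell. Of 23 tested genes of hypoxia and glycolysis, 4 fell, 0 rose and 19 did not pass, 22 had a negative log2 fold change, and the median was −0.98. Car9, the cell-surface carbonic anhydrase IX, had signals of 9503.4 and 7821.2 at day 4 and 1070.5 and 3690.4 at day 6 (log2 fold change −2.11, SE 0.45, adjusted p = 0.0351). Ankrd37 had 7068.2 and 6552.2 at day 4 and 1157.4 and 3494.0 at day 6, a log2 fold change of −1.75 (adjusted p = 0.0421). P4ha1, a subunit of the prolyl hydroxylase of collagen, had 11689.3 and 13129.2 at day 4 and 3340.9 and 6712.7 at day 6, and Higd1a, a mitochondrial protein induced by hypoxia, had 36577.4 and 33548.5 at day 4 and 13876.3 and 22687.9 at day 6. In all 4 genes WT day 6 replicate 1 lay below replicate 2. Vegfa and Slc2a1, the vascular growth factor and the glucose transporter GLUT1, which were chosen after their values were seen, had log2 fold changes of −1.09 and −1.19 and did not pass (adjusted p = 0.0732 and 0.0766), and Gapdh and Ldha had −0.08 and −0.27. Removing replicate 2 of WT day 6 raised the count from 4 to 15. Removing replicate 2 of WT day 4 or an array of KO day 6 left 1, and removing replicate 1 of either WT group or an array of KO day 4 left 0. The Car9 promoter is shown because its hypoxia element close to the gene start is a textbook site of HIF-1. The 250 bases before its RefSeq gene start (chr4:43506776-43507025, plus strand, GRCm38.p6) hold ACGTG, the core of that element, on the opposite strand, in capitals.
Car9 promoter: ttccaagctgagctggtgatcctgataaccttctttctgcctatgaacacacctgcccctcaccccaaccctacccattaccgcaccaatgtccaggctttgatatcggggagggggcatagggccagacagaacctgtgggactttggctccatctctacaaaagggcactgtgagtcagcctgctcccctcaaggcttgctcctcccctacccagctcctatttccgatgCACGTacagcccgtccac
The core was in 3 of the 4 genes that fell, Ankrd37, Car9 and P4ha1, and in 16.6% of all promoters.

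Among other stress programmes, the unfolded protein response had the most genes that passed. Of its 18 tested genes, 3 fell and 0 rose, beside 1.65% of all genes tested that fell. All 18 had a negative log2 fold change, and the median was −0.40. Dnajb9, an ER co-chaperone, had 13714.5 and 11720.0 at day 4 and 4856.0 and 6978.0 at day 6 (log2 fold change −1.12, SE 0.18, adjusted p = 0.0197). Herpud1, a protein of ER-associated degradation, and Pdia4, a disulfide isomerase of the ER, fell by 0.92 and 0.54. Removing replicate 1 of either WT group or an array of KO day 4 left 0 genes of the list, and removing replicate 2 of WT day 4 gave 6. Of 14 heat shock genes, 1 fell, Cryab, by 0.44, and of 15 targets of glucocorticoids, 1 fell, Klf9. Klf9, a transcription factor that also follows the clock, had 11649.0 and 7766.7 at day 4 and 3000.3 and 5452.3 at day 6 (log2 fold change −1.23, adjusted p = 0.0412). Of 19 immediate early genes, 16 targets of p53, 14 regulators of apoptosis and 15 genes of cholesterol synthesis, 0 passed in either direction. Of 16 genes of arginine, iron and oxidant stress, 1 passed, the transferrin receptor Tfrc, which rose by 0.61.

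Some targets of interferon-γ rose. Of 19 tested genes, 5 rose, 0 fell and 14 did not pass, all 19 had a positive log2 fold change, and the median was 1.14. Cxcl9, a chemokine that draws T cells through CXCR3, had signals of 131.5 and 366.2 at day 4 and 5013.0 and 1445.8 at day 6 (log2 fold change 3.51, SE 0.71, adjusted p = 0.0305). Gbp2, a guanylate-binding protein, had 1024.4 and 1610.5 at day 4 and 8505.3 and 5230.1 at day 6 (log2 fold change 2.36, SE 0.39, adjusted p = 0.0210). Gbp6 went from 178.4 and 466.3 to 2138.5 and 1698.0, and Iigp1, an immunity-related GTPase, from 1220.9 and 1943.9 to 7934.7 and 6121.1. The arrays of the days did not overlap in these genes, as in all 732 genes that passed, and the replicates of Cxcl9 were far apart at both days. Ubd, a ubiquitin-like modifier, had 69.8 and 17.1 at day 4 and 1009.5 and 253.0 at day 6, and Il18bp, the soluble inhibitor of IL-18, had 23.1 and 34.6 at day 4 and 173.5 and 233.5 at day 6. Removing replicate 1 of either WT group or an array of KO day 4 left 0 genes of the list, removing an array of KO day 6 gave 8, and removing replicate 2 of WT day 4 or of WT day 6 gave 4 and 3. The Gbp2 promoter is shown because guanylate-binding protein genes are textbook targets of interferon-stimulated response elements (ISRE). Its 250 bases before the RefSeq gene start (chr3:142620413-142620662, plus strand, GRCm38.p6) hold the ISRE core TTTCNNTTTC, where N is any base, in capitals.
Gbp2 promoter: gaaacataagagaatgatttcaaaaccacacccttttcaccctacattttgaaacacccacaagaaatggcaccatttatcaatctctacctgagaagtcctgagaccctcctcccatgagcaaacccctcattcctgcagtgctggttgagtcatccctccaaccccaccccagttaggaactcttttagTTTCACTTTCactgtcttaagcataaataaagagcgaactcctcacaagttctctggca
The core was in 1 of 3 genes of the list that rose and had a promoter in the table, and in 2.98% of all promoters.

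Of 22 tested targets of type I interferon, 0 were higher and 1 was lower, and the median was −0.25. The gene that fell, Isg20, a 3′ exonuclease, had 8846.0 and 5194.5 at day 4 and 2008.7 and 2743.2 at day 6 (log2 fold change −1.52, SE 0.24, adjusted p = 0.0195). Rtp4, another gene of the list, had 3792.4 and 3934.4 at day 4 and 3850.3 and 3657.0 at day 6. Of 13 genes of MHC class I presentation, 0 passed, with a median of 0.43, and of 12 of MHC class II, 0 passed, with a median of 0.17. Among the chemokines, Cxcl9 and Cxcl15 of 16 CXC genes rose. Ccl12, a ligand of CCR2 on monocytes, rose from 1758.6 and 2413.5 to 7927.4 and 6194.5 (log2 fold change 1.76), and Ccl6 fell from 23408.6 and 24846.5 to 14705.3 and 14633.8 (log2 fold change −0.72), out of 17 CC genes. Of 20 genes of TNF and NF-κB feedback, 2 rose, the adhesion molecule Vcam1 by 1.43 and the inhibitor Nfkbie by 1.07. Of 15 complement genes, 3 fell and 0 rose. These were Cd55, Cfb (factor B, −1.42) and Serping1 (the C1 inhibitor, −1.06), so that the 3 hold an activator and a pair of inhibitors. Of 11 tested genes of the IL-1 family, Il18bp alone passed, and of 16 of IL-6 family and STAT3 signalling, 0 passed.

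**Figure D3:**
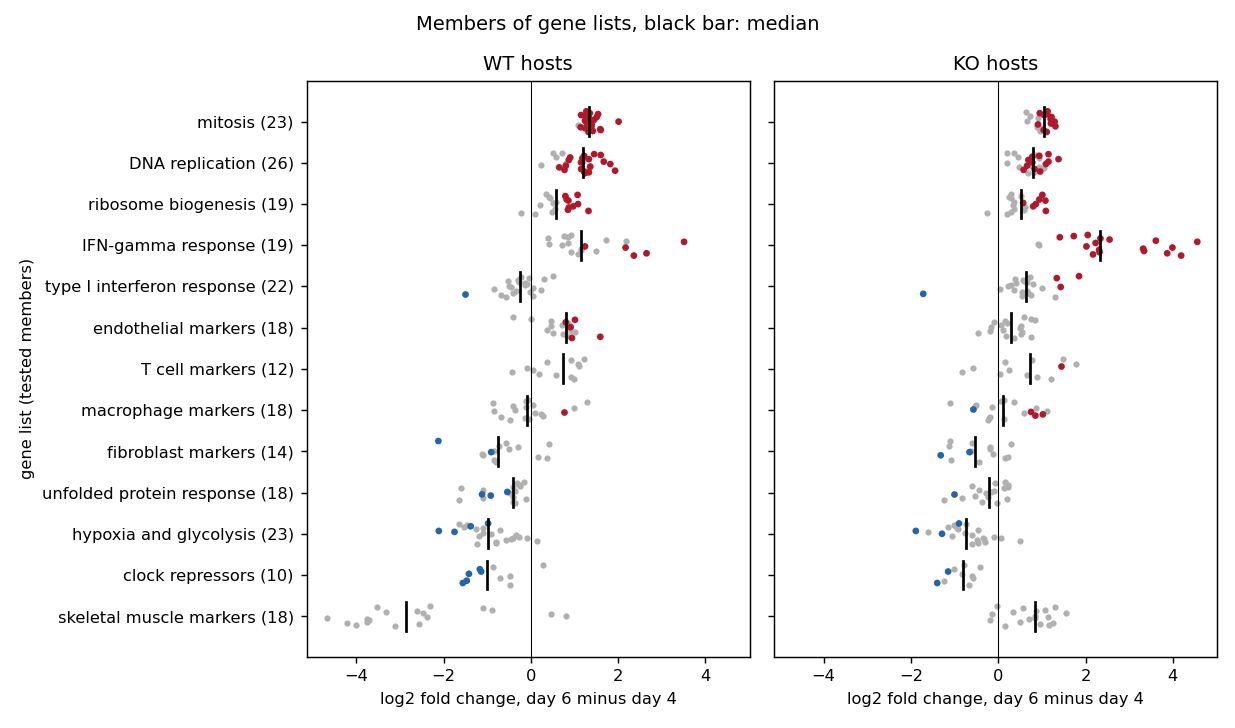
Log2 fold changes between day 6 and day 4 of the members of 13 gene lists, in WT hosts on the left and KO hosts on the right, with 1 point per tested gene, red for genes that passed as higher, blue for genes that passed as lower, grey for the rest and a black bar for the median of the list. In WT hosts all members of the mitosis, DNA replication and IFN-gamma response lists lie above 0, and the muscle list lies far below 0 because of 1 array of day 4.

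Of the cell type markers, those of endothelium had the largest share of genes that rose. Of 18 tested, 5 rose, 0 fell, 17 were positive, and the median was 0.81. Cdh5, the VE-cadherin of endothelial junctions, had signals of 783.2 and 750.1 at day 4 and 2705.6 and 2023.8 at day 6 (log2 fold change 1.59, SE 0.24, adjusted p = 0.0179), while a second probe set gave 0.17. Pecam1, or CD31, had 1438.6 and 1142.5 at day 4 and 2686.7 and 2287.1 at day 6, a log2 fold change of 0.94 (adjusted p = 0.0368). The junction gene Cldn5 and the apelin receptor Aplnr rose by 0.91 and 1.01. The summed signal of the list was 21906 and 17892 at day 4 and 43585 and 28762 at day 6. These sums did not overlap between the days, but nor did the signals of 53.8% of all genes tested. No endothelial gene passed once replicate 1 of WT day 6 was removed, removing replicate 2 of WT day 4 or an array of KO day 4 left 1, removing replicate 1 of WT day 4 or of KO day 6 left 2, and removing replicate 2 of KO day 6 left 3. Pdgfrb, the PDGF receptor of pericytes and fibroblasts, had 3142.1 and 3888.8 at day 4 and 8540.0 and 8009.2 at day 6 (log2 fold change 1.24, SE 0.14, adjusted p = 0.0132). It was the 1 gene of 12 pericyte and smooth muscle markers that passed. Angpt1, the ligand of the endothelial receptor TIE2, went from 574.9 and 786.2 to 1354.4 and 2020.0, the 1 gene of 17 angiogenic factors that passed.

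Fibroblast markers had a median of −0.76, with 2 of 14 lower and 0 higher. Clec3b, or tetranectin, had 4409.6 and 5885.9 at day 4 and 1903.6 and 705.7 at day 6 (log2 fold change −2.12, SE 0.41, adjusted p = 0.0282). Dcn, the collagen-binding proteoglycan decorin, had 26814.3 and 29787.3 at day 4 and 12775.0 and 17787.0 at day 6, a log2 fold change of −0.91. With replicate 1 of WT day 4 removed 5 genes fell, removing replicate 2 of WT day 4 left 1, and removing replicate 1 of WT day 6 or an array of KO day 4 left 0. Of 22 genes of collagens and matrix, Dcn fell and Tnc, the tenascin of wound matrix, rose from 10398.1 and 10985.3 to 16830.4 and 23294.2 (log2 fold change 0.89). Of 17 matrix proteases and their inhibitors, 1 passed, the aggrecan protease Adamts5, which fell by 1.73. Of 18 tested genes of Wnt signalling, 2 fell, the secreted inhibitors Dkk2 and Sfrp2, by 2.13 and 1.47. The ligand Wnt2, which fell more than both, was not in this list. Of 21 genes of TGF-β and BMP signalling, 1 rose, Tgfb3, by 0.90. Few leukocyte markers passed, beside 4.21% of all genes tested that rose and 1.65% that fell. Of 18 macrophage markers, 1 passed (Msr1, a scavenger receptor, 0.77, with 4 probe sets from 0.03 to 0.90), and the median was −0.08. Of 15 neutrophil, 16 dendritic cell, 12 T cell and 8 mast cell markers, 0 passed, with medians of 0.04, 0.19, 0.75 and −0.19. Most T cell markers were dim. The 60th percentile filter kept 2 of them, with a median of −0.03. Leaving out 1 WT array gave T cell medians from 0.15 to 0.85. Of 11 NK and cytotoxic markers, Gzmb alone passed and all 11 were positive. S100a8 of neutrophils had 5636.4 and 297.4 in the WT arrays of day 4, so the spread within that day was wide.

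Among 19 tested markers of basal and squamous carcinoma, 1 rose, Cdh1, and 2 fell. The log2 fold change was negative in 15 of the 19 and positive in 4, and the median was −0.46. Lamb3, a chain of laminin-332, had 2244.8 and 3240.1 at day 4 and 657.1 and 727.8 at day 6 (log2 fold change −1.94, adjusted p = 0.0210), and Krt19 had 17346.0 and 17039.3 at day 4 and 6131.0 and 11133.8 at day 6 (log2 fold change −1.06, adjusted p = 0.0404). Krt8 and Cd44 had log2 fold changes of 0.08 and −0.15 and did not pass. Of 12 tested markers of epidermal differentiation, 1 fell, Sprr1a, a protein of the cornified envelope, from 2921.0 and 3041.8 to 491.0 and 1564.0. In this list 11 genes were negative and 1 was positive, with a median of −0.61. The summed signal of the list was 8056 and 7844 at day 4 and 3036 and 4423 at day 6. Of the markers tested for adipocytes (15), Schwann cells and nerve (10), B cells and plasma cells (6), hair follicle (5), erythroid cells (3) and sebaceous gland (2), 0 passed. Krt10, a keratin of mature epidermis, lay at 527.9 to 599.4 in the 4 WT arrays.

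Clock genes were among those that fell. Of 10 tested repressors of the clock, 5 fell and 0 rose, 9 were negative, and the median was −1.0. Per2 had signals of 433.9 and 632.8 at day 4 and 150.8 and 184.5 at day 6 (log2 fold change −1.56, SE 0.30, adjusted p = 0.0280). Nr1d1, or REV-ERBα, which represses Arntl, had 1315.8 and 1054.8 at day 4 and 310.8 and 595.2 at day 6 (log2 fold change −1.42). Per3, Ciart and Nr1d2 fell by 1.47, 1.17 and 1.14, and the 4 probe sets of Per3 ranged from −1.47 to −0.05. Bhlhe40, Cry1, Per1 and Cry2 had log2 fold changes of −0.86, −0.70, −0.47 and −0.47 and did not pass. Of the 4 output factors, Dbp fell and Tef had −0.58. Of the 4 activators, 0 passed, with Npas2, Clock and Arntl at 0.55, 0.27 and 0.26, and the 4 probe sets of Clock ranged from −0.34 to 0.27. Removing replicate 1 of WT day 6 or an array of KO day 4 left 0 of the 5, removing replicate 1 of WT day 4 left 2, and removing replicate 2 of WT day 4 or an array of KO day 6 left 3. The hour at which a tumour was taken is not labelled and cannot be told apart from the day.

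The promoters of Ciart and Per3 are shown because the clock acts through the E-box, bound by CLOCK and ARNTL, and the D-box, bound by DBP. Both are the 250 bases before the RefSeq gene start in GRCm38.p6 (chr3:95882229-95882478, minus strand for Ciart and chr4:151044666-151044915, minus strand for Per3), and the capitals mark the E-box CACGTG in Ciart and the D-box TTATGTAA in Per3.
Ciart promoter: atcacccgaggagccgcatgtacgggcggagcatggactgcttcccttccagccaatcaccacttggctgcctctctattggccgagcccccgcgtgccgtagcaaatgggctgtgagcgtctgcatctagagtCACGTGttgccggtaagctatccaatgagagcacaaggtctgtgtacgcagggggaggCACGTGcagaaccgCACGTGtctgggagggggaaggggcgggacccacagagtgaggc
Per3 promoter: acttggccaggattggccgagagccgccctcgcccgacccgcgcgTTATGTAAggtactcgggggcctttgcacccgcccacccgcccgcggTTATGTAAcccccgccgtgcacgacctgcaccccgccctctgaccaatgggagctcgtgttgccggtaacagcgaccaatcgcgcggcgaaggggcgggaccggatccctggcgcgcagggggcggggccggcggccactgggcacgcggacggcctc
Ciart held the E-box 3 times and Per3 the D-box 2 times. In this window 1 of the 4 repressors that fell and had a promoter in the table held an E-box and 1 a D-box, against 6.02% and 0.819% of all promoters.

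**Figure D4:**
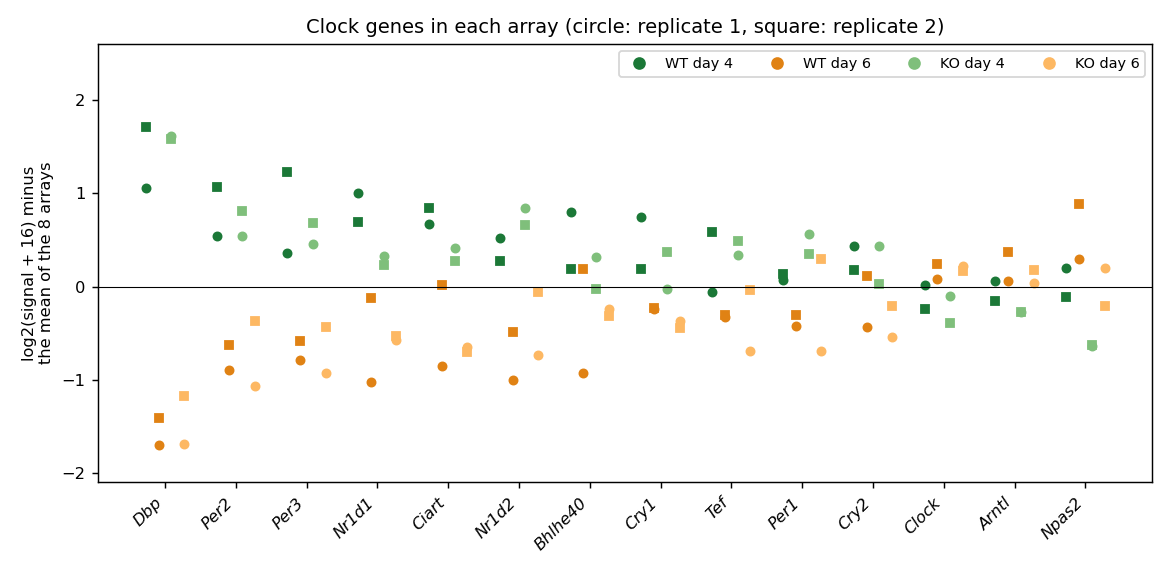
Levels of 14 clock genes in the 8 arrays, as log2(signal + 16) minus the mean of the 8 arrays for each gene, with WT in dark and KO in light colours, day 4 in green and day 6 in orange. Dbp, Per2 and Per3 lie higher in all 4 arrays of day 4 than in all 4 of day 6, and Bhlhe40 overlaps between the days.

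The same comparison in KO hosts shares no array with the one in WT hosts, but the same estimate of the spread, and its days differed in host sex in the same way. In KO hosts 468 genes were higher and 308 lower at day 6, which is 3.74% and 2.46% of the genes tested. Of the genes that passed, 327 did so in both genotypes, all in the same direction, which is 44.7% of the WT genes and 42.1% of the KO genes. Of the 732 genes that passed in WT hosts, 719 had the same sign in KO hosts (98.2%, against 75.4% of all genes tested). The 526 genes that rose in WT hosts had a median log2 fold change of 0.90 there and of 0.64 in KO hosts, and the 206 that fell had −1.03 and −0.78. These genes were chosen by their values in WT hosts, so a smaller median in KO hosts is fixed in part by the choice. Lmo1 had a log2 fold change of 2.98 in WT and 2.95 in KO hosts, Dbp had −2.94 and −3.03, and Dpp4 had −2.52 and −2.51. Mnd1, Avil and Mcm5 had 2.34, −2.45 and 1.93 in WT and 0.71, −0.57 and 0.83 in KO hosts, where they did not pass.

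The day effect itself was compared between the genotypes by its interaction. With all arrays, 0 of the 12505 genes passed (limma, lowest adjusted p = 0.327), 548 had an unadjusted p under 0.05, and removing replicate 1 or 2 of KO day 6 gave 9 and 3 genes. A gene or list that passed in WT hosts and not in KO hosts, or the reverse, is therefore not shown to differ between them. The lists are given side by side. The median of the interferon-γ targets was 1.14 in WT and 2.32 in KO hosts, with 5 and 17 of 19 genes higher. In Gbp2 the KO arrays went from 902.4 and 628.1 to 20582.9 and 9501.7. The medians of the mitosis and DNA replication genes were 1.33 and 1.18 in WT and 1.04 and 0.80 in KO hosts, those of hypoxia and glycolysis −0.98 and −0.73, and those of the endothelial markers 0.81 and 0.29, with 5 and 0 of 18 higher. Cldn5 and Tgfb3, which passed in WT hosts, had log2 fold changes of −0.16 and −0.20 in KO hosts. KO day 6 replicate 2 held skin and muscle transcripts, with Krt10 at 9762.5 and Acta1 at 22022.4. KO day 4 replicate 2 held muscle transcripts too, with Acta1 at 9824.4 against 652.8 in replicate 1 and a summed muscle signal of 30285 against 2634. The part of these transcripts in the KO values, and in the spread behind the WT tests, was not tested.

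**Figure D5:**
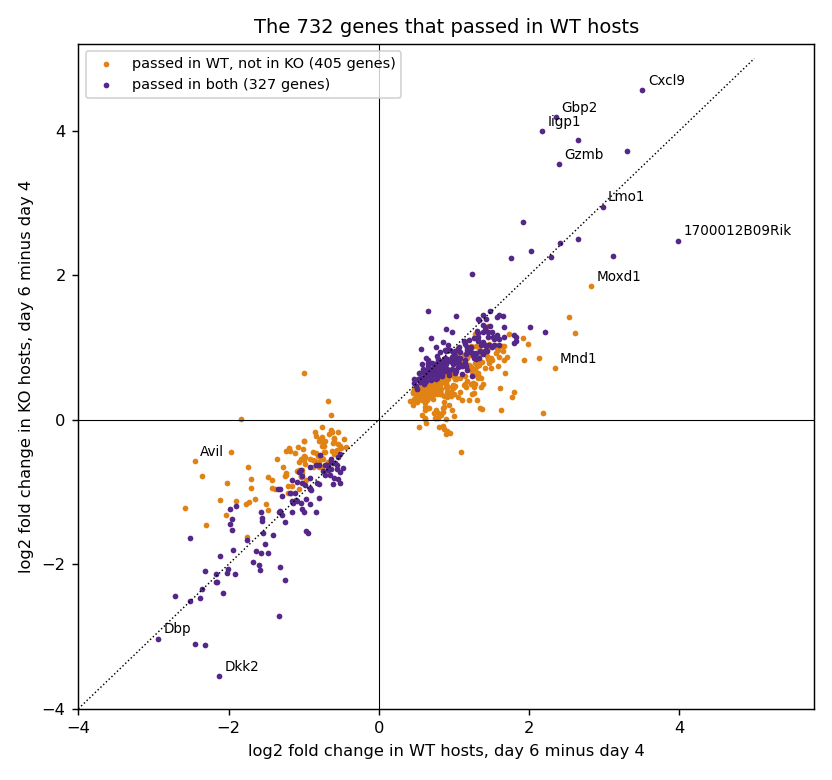
Log2 fold changes between day 6 and day 4 in WT hosts (horizontal axis) and KO hosts (vertical axis) of the 732 genes that passed in WT hosts, with the 327 that passed in both genotypes in purple, the other 405 in orange and a dotted line where both are equal. Nearly all genes lie in the quadrants of equal sign, Gbp2, Iigp1 and Gzmb lie above the line, and Mnd1 and Avil lie nearer to 0 in KO hosts.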

How the data were processed

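RNA of subcutaneous MOPC tumours was hybridised by the authors to Affymetrix mouse arrays, and they deposited 1 signal intensity for each of 45101 probe sets, on a linear scale. The submitters' processing notes name MAS5 without a version, and the 2% trimmed mean of every array was 1000, so the authors scaled each array before deposit. Array medians were 133.2 to 175.2, lower at day 6 than at day 4. Detection calls were not used here. The study's methods describe the arrays of day 6, and neither they nor the labels say whether the tumours of day 4 came from separate mice, so p-values measure the spread between these samples, and the number of arrays limits the precision.

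Symbols came from the platform annotation (34958 probe sets with 1 symbol, 932 with several, 9211 with none), and 34754 of the first were matched to RefSeq genes of GRCm38.p6, the source of the promoters. The probe set with the most mean signal across the 8 arrays stood for a gene, and genes whose signal reached the 40th percentile (78.6) were tested, 12976 in all. Values were log2(signal + 16), so that fold changes of dim genes are understated. A model of 4 groups with a variance trend on the mean signal was fitted to the 8 arrays in limma 3.58.1 (R 4.3.3) and was tested on simulated data. Genes passed at a p under 0.05 after Benjamini-Hochberg adjustment over all genes tested.

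The members, the 49 gene lists and the tests were chosen with earlier results of these data known. Genes were named from the sets that follow, and some genes of these sets are not named. The first were the 15 highest and 15 lowest among those that passed without overlap. Next came up to 4 per list and direction that passed, and in lists with fewer than 2 the 2 with the highest signal. The others were the 2 brightest markers of each cell type, clock genes, genes that passed for the difference between WT and KO (0 did) and sex-linked genes. Many list members that did not pass are given by counts. Ckm, Gapdh, Krt10, Ldha, Mcm6, Ncl, Npm1, Slc2a1 and Vegfa were chosen after their values were seen. List members without a probe set under their own symbol or under a gene matched by a RefSeq synonym were not analysed here.

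Alternatives were quantile normalization, median centring, pseudocounts of 1 and 64, no filter, a 60th percentile filter, averaging a gene's probe sets, fitting the 2 compared groups on their own, omitting the trend, testing autosomal genes alone, the replicate number as a block, the methods' t-test and leaving out each array.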

Additional observations from a re-analysis of the deposited data

Results flagged for a closer look

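In 3 gene lists the median level in both WT arrays of day 6 lay on one side of the mean of the WT arrays of day 4, and in both KO arrays on the other side of theirs. The difference was not tested for the lists, and for single genes the interaction gave 0 that passed with all arrays. For type I interferon targets the median log2 fold change of 22 genes was −0.25 in WT and 0.63 in KO hosts, a difference of −0.88. The KO arrays of day 6 were far apart, with median levels, on the log2 scale relative to the 8 arrays, of 0.64 in replicate 1 and −0.33 in replicate 2, against −0.34 and −0.45 at day 4. For the neutrophil markers, 15 genes, the median log2 fold changes were both positive, 0.04 in WT and 0.63 in KO hosts, a difference of −0.59. The WT value turned on single arrays of day 4, whose median levels were 0.76 and −0.27, with 0.13 and 0.01 at day 6. The WT median was 0.39 without replicate 1 of WT day 4 and −0.80 without replicate 2. For the pericyte and smooth muscle markers, 12 genes, the medians were 0.23 and −0.22, a difference of 0.45.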

How the results depend on the processing

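The counts of genes that rose and fell in WT hosts, 526 and 206, and of genes that passed in KO hosts, 776, were 0, 0 and 1 with the methods' t-test after Benjamini-Hochberg adjustment, which gave 820 higher and 531 lower WT genes without it. They were 6, 2 and 1672 in fits to the compared groups alone, 3, 3 and 69 with no trend, and 281, 124 and 355 with the mean of all probe sets. Median centring gave 1570 higher WT genes and 1301 KO genes, and no filter gave 502 KO genes. With the replicate number as a block they were 310, 135 and 310. The replicate differences of WT day 4 and WT day 6 correlated at −0.12, and a block with the WT numbers crossed, added after seeing the data, gave 480 higher and 211 lower genes. The labels do not say that a number pairs samples. Leaving out 1 array gave 2 to 569 higher and 0 to 295 lower WT genes, 2 to 1310 KO genes and 0 to 9 genes of the interaction. Quantile normalization, both other pseudocounts, the 60th percentile filter and autosomal genes alone kept all of these counts within 1.5 times. Of 88 named autosomal genes, the 80 that passed in WT hosts were followed across the alternatives. The sign changed in 0 of these 80, which for genes whose groups did not overlap is fixed when an array is left out. Of the same 80 genes, 79 also passed after quantile normalization, 69 with the block and 56 with the mean of all probe sets. With the mean of all probe sets, 11 mitosis and 12 DNA replication genes were higher in WT hosts, against 21 and 19. For ribosome biogenesis, interferon-γ targets and endothelial markers, 8, 4 and 2 were higher, against 9, 5 and 5. In hypoxia and glycolysis and in the clock repressors 1 gene each was lower, against 4 and 5. In the unfolded protein response 4 were lower, against 3. The cause of these changes was not tested. With 2 arrays per group a gene that did not pass is not shown to be unchanged.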
